A study of Homo sapiens with 11 samples.

Results

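The HOX cluster genes were examined in 11 established T-cell acute lymphoblastic leukemia (T-ALL) cell lines. Members were all probe sets that carry exactly 1 gene symbol made of HOXA, HOXB, HOXC or HOXD and a number. This gave 44 probe sets for 28 genes out of 19775 genes with a symbol, with a single probe set kept per gene, the highest by its mean over all lines. HOXB entered with 10 genes, HOXC with 9, HOXD with 8 and HOXA with HOXA2 alone, and the other HOXA genes were not analysed here. A further 3 probe sets name HOXD3 together with HOXD4 and another locus, did not exceed 3.82 in any line, and were no members.

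RNA of each line was read on a single HG U133 Plus 2.0 array, so the cell line is the replicate and a level in a single line has no replicate of its own. The lines LOUCY, PEER, JURKAT, HPB-ALL, CCRF-CEM and ALL-SIL were labelled positive for NKL status, which refers to homeobox oncogenes of the NKL subclass, and SUP-T1, MOLT-16, MOLT-14, MOLT-4 and CML-T1 were labelled negative. All are T-ALL cultures with no treatment named in the labels. The comparison of groups asked which genes differ with NKL status. It took 5 NKL-positive and 5 NKL-negative lines and left JURKAT out.

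All values are log2 values after RMA, a procedure that corrects for background, brings all arrays to the same distribution and sums up the probes of each probe set. Array medians ran from 4.63 to 4.76 and lower quartiles from 3.45 to 3.60, so values around 3 to 4 are close to background and have no order. Markers of T-cells above the upper quartile numbered 11 to 13 of 13 in every line, those of B-cells 0 to 3 of 7, those of myeloid cells 0 of 8, and those of erythroid and megakaryocyte cells 0 or 1 of 6. In LOUCY the count was 3 for B-cell and 1 for megakaryocyte markers, and the myeloid markers ITGAM at 6.76 and LYZ at 5.48 were higher there and in CML-T1 (7.08 and 5.21) than in the other 9 lines. No other myeloid marker was highest in both lines, and CSF3R was lowest there, at 4.73 in LOUCY and 3.91 in CML-T1. The part of these markers in the HOX levels was not tested. The arrays of MOLT-16, CML-T1 and HPB-ALL showed no poly-A control RNAs, which are added before labelling, with control means of 3.01 to 3.14 against 5.96 to 9.48 in the other 8 lines, and whether this reflects another handling of these arrays was not tested.

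HOX proteins are homeodomain transcription factors that give cells their position along the body axis. Their genes lie side by side in clusters, in the order of their domains along that axis, and neighbours are often switched on together. In blood formation they are active in stem and progenitor cells and fall silent as cells mature, and HOX proteins bind DNA together with TALE homeodomain cofactors of the PBX, MEIS and PKNOX families. Prolonged HOX activity is a known feature of some leukemias.

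Besides protein-coding members, the HOXB cluster holds the microRNA gene MIR10A, which lies between HOXB4 and HOXB5, and antisense transcripts. The mature products of MIR10A are shown because its transcript was high in the line with the most active HOXB genes. RefSeq on GRCh38.p14 places hsa-miR-10a-5p on the minus strand at chr17:48579904-48579926 and hsa-miR-10a-3p at chr17:48579864-48579885, and capitals mark the seed, bases 2 to 8. The array reads a longer transcript annotated to MIR10A and not these products.
hsa-miR-10a-5p: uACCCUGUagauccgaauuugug
hsa-miR-10a-3p: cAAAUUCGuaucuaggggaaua

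The 250 bases before a transcription start are shown for HOXB-AS1, an antisense transcript that followed HOXB2 across the lines, and for HOXC4, whose start RefSeq shares with HOXC5. They lie on the plus strand of GRCh38.p14, at chr17:48544101-48544350 within the HOXB2 gene, and at chr12:54016638-54016887, where the annotation also has an uncharacterized locus. Capitals mark CpG dinucleotides, of which HOXB-AS1 had 4 and HOXC4 14, against a median of 11 over 34943 windows of this length.
HOXB-AS1: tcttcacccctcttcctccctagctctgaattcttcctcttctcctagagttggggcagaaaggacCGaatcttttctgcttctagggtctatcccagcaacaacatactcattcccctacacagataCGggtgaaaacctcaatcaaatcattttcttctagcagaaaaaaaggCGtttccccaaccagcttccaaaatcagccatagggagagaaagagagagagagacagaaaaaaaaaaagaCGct
HOXC4 and HOXC5: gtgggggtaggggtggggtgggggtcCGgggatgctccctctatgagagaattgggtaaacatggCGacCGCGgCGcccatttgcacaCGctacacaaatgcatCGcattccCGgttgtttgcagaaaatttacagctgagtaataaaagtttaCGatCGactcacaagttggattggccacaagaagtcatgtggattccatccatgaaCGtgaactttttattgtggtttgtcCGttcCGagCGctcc
Neither window holds the TATA box TATAAA, the composite PBX-HOX motif TGATNNAT or the CDX motif TTTATG on either strand, which occur in 10.8%, 6.49% and 9.66% of all windows. RefSeq windows were at hand for 11 of the 28 members.

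A gene was said to stand out in a line if it exceeded both the array median and, by 2 log2 units or more, the median of the remaining 10 lines. By this measure 13 of the 28 HOX genes stood out in at least 1 line, against 11.5% of all genes. They gave 21 pairs of a gene and a line, where 1.88% of all such pairs stand out, with 14 pairs from 8 HOXB genes, 6 pairs from 4 HOXC genes and 1 pair from HOXD13. LOUCY held 11 of the pairs, where 2.46% of all genes stand out. JURKAT held 5 (1.99% of all genes), PEER 2 (1.56%), MOLT-14 2 (1.46%) and CML-T1 1 (3.34%). No HOX gene stood out in SUP-T1 (1.41% of all genes), MOLT-16 (2.31%), MOLT-4 (0.986%), HPB-ALL (2.57%), CCRF-CEM (1.62%) and ALL-SIL (0.986%). The pairs nearest to the threshold were HOXC4 in JURKAT at 2.03 above the other lines, and HOXC4 in CML-T1 at 1.97. These counts describe single arrays and were not tested.

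**Figure D1:**
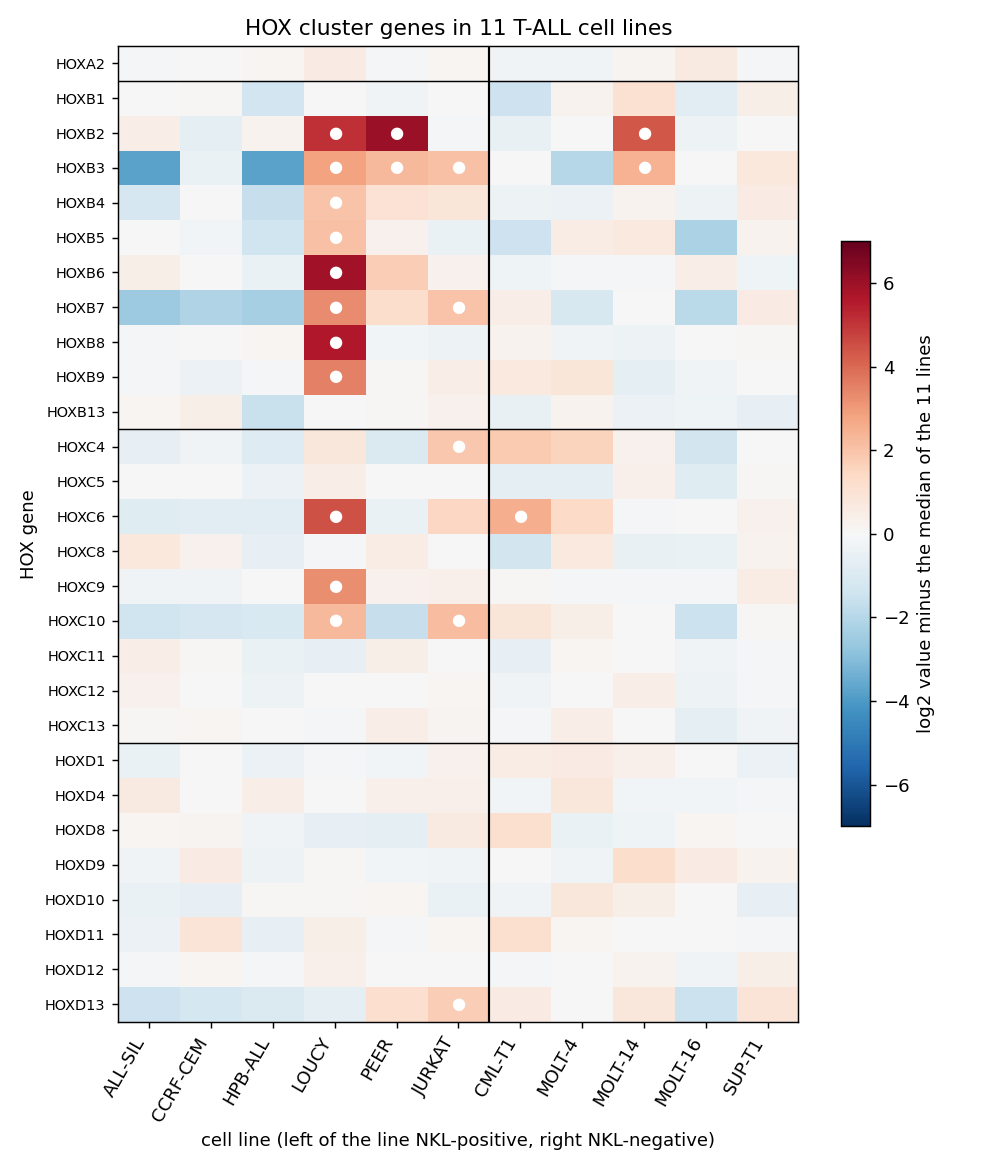
HOX genes (rows) in 11 T-ALL cell lines (columns), coloured by the log2 value minus the median of the 11 lines, with NKL-positive lines to the left of the vertical line. White dots mark the 21 pairs that stand out, 11 of them in LOUCY, 5 in JURKAT, 2 each in PEER and MOLT-14 and 1 in CML-T1.

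In LOUCY the whole stretch from HOXB2 to HOXB9 was high, while the genes at both ends of the cluster, HOXB1 and HOXB13, were not. The mean over the 10 HOXB genes was 7.99 in LOUCY, 6.18 in PEER, 5.69 in MOLT-14 and 5.45 in JURKAT, and 3.74 to 5.12 in the other 7 lines. HOXB1 was 4.83 in LOUCY, equal to its median over the lines, and HOXB13 was 4.48, likewise its median.

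HOXB2 acts in patterning of the hindbrain. Its value was 10.15 in PEER, 9.25 in LOUCY and 8.45 in MOLT-14. It lay at 4.58 in ALL-SIL, 4.38 in HPB-ALL, 4.12 in MOLT-4, 4.09 in SUP-T1, 3.98 in JURKAT, 3.76 in MOLT-16, 3.62 in CML-T1 and 3.51 in CCRF-CEM. The 3 high lines were thus clear of the other 8, and they include 2 NKL-positive lines and 1 NKL-negative line.

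HOXB3 and HOXB4 are expressed in hematopoietic stem cells, where HOXB4 is known to promote self-renewal. HOXB3 was 9.84 in LOUCY, 9.49 in MOLT-14, 9.28 in PEER and 9.06 in JURKAT, followed by SUP-T1 at 7.75, MOLT-16 at 7.03, CML-T1 at 7.02, CCRF-CEM at 6.56 and MOLT-4 at 5.03. It was close to background in ALL-SIL at 3.26 and in HPB-ALL at 3.31. The second HOXB3 probe set ranged from 3.59 to 6.60, also with its maximum in LOUCY, but stood out in no line and followed the first with a correlation of 0.59 over the 11 lines.

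HOXB4 was above the array median in all 11 lines. Its value was 8.90 in LOUCY, 7.91 in PEER, 7.73 in JURKAT, 7.45 in SUP-T1, 7.10 in MOLT-14 and 6.88 in CCRF-CEM, and then 6.54 in MOLT-16, 6.50 in CML-T1, 6.48 in MOLT-4, 5.73 in ALL-SIL and 5.28 in HPB-ALL. Only LOUCY stood out, and the lines formed a gradient without a clear gap.

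HOXB5, a gene known to mark long-term stem cells in the mouse, was 7.63 in LOUCY and 6.27 in MOLT-14, the next line. It was 6.06 in MOLT-4, 5.84 in PEER, 5.80 in SUP-T1, 5.56 in ALL-SIL, 5.35 in CCRF-CEM and 5.11 in JURKAT, and least where poly-A controls were missing, with 3.35 in MOLT-16, 4.13 in CML-T1 and 4.17 in HPB-ALL. Its second probe set was 7.24 in LOUCY and at most 5.03 elsewhere, and correlated with the first at 0.43.

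HOXB6 and HOXB8 gave the sharpest contrast between LOUCY and the rest. HOXB6 was 9.27 in LOUCY and 5.10 in PEER, and 2.92 to 3.82 in the other 9 lines. HOXB8, whose protein can hold myeloid progenitors in an immature state, was 8.63 in LOUCY and 2.66 to 3.31 in the other 10 lines. These low values do not differ from background, so that HOXB8 was seen in LOUCY alone. The second probe set of HOXB6 was 6.44 in LOUCY and 3.06 to 3.82 elsewhere, and that of HOXB8 was 5.22 in LOUCY and 2.96 to 3.66 elsewhere.

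HOXB7 was spread over more lines. Its value was 9.16 in LOUCY, 7.82 in JURKAT, 7.04 in PEER, 6.39 in SUP-T1, 6.27 in CML-T1 and 5.83 in MOLT-14, against 4.71 in MOLT-4, 3.94 in MOLT-16, 3.71 in CCRF-CEM, 3.48 in HPB-ALL and 3.31 in ALL-SIL. Both further probe sets of HOXB7 were highest in LOUCY and next in JURKAT, with correlations of 0.96 and 0.99 to the chosen one. HOXB9 was 7.92 in LOUCY and 3.74 to 5.22 in the other 10 lines, and its second probe set was 7.11 in LOUCY and at most 5.11 elsewhere.

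The plot of the HOXB cluster by line shows these differences along the chromosome. PEER and MOLT-14 stood out at HOXB2 and HOXB3. Beyond these PEER was the second highest line for HOXB4 at 7.91 and for HOXB6 at 5.10 and the next after JURKAT for HOXB7 at 7.04, just short of standing out, whereas MOLT-14 had HOXB6 at 3.32 and HOXB7 at 5.83, the median of the lines. JURKAT stood out at HOXB3 and HOXB7, which are not direct neighbours, and was low at HOXB2 (3.98) and HOXB6 (3.66). HOXB4, which lies beside HOXB3, was 7.73 in JURKAT, next after LOUCY and PEER. It stood out there at a gap of 1 log2 unit but not at 2. LOUCY was high from HOXB2 to HOXB9.

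**Figure D2:**
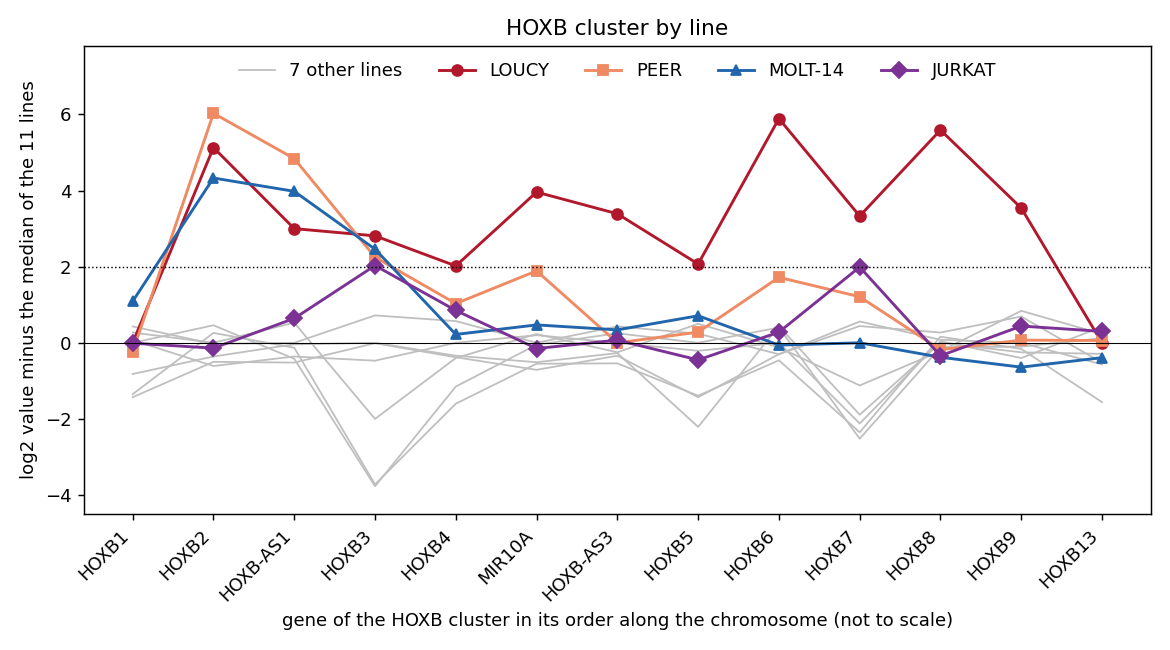
HOXB genes and 3 non-coding transcripts in their order along the chromosome (not to scale), plotted as the log2 value minus the median of the 11 lines; the dotted line marks 2. LOUCY lies above 2 from HOXB2 to HOXB9, PEER and MOLT-14 do so from HOXB2 to HOXB3, JURKAT lies close to 2 at HOXB3 and HOXB7, and the 7 other lines (grey) stay below it.

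Transcripts within the clusters were measured for 14 of 28 listed names. Of the 14, 4 (28.6%) stood out in a line, against 11.5% of all genes. HOXB-AS1, which lies beside HOXB2 on the opposite strand, was 8.28 in PEER, 7.42 in MOLT-14 and 6.44 in LOUCY, and 2.92 to 4.08 in the other 8 lines. These are the lines with high HOXB2. The correlation of HOXB-AS1 with HOXB2 was 0.96 over the 11 lines and 0.97 over the 10 lines without LOUCY, and among all 19774 other genes no gene correlated with HOXB2 more highly. The next were TTYH1 at 0.93 and PGBD2 at 0.91.

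MIR10A was 7.93 in LOUCY and 5.86 in PEER, and 3.26 to 4.44 in the other 9 lines. Like HOXB6 it was highest in LOUCY and next in PEER, and it correlated with HOXB6 at 0.94. Without LOUCY the correlation was 0.78, which rests on PEER, since HOXB6 lay near background in the other 9 lines. HOXB-AS3, which lies between MIR10A and HOXB5, was 7.24 in LOUCY and 3.31 to 4.28 elsewhere. HAGLROS of the HOXD cluster stood out in ALL-SIL, where it was 6.57, and was 6.17 in CML-T1, 5.78 in CCRF-CEM, 5.73 in MOLT-4 and 5.69 in JURKAT. HOTAIR of the HOXC cluster did not exceed 4.09.

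Of 24 genes beside the clusters, 2 (8.33%) stood out in LOUCY, against 2.46% of all genes. These were JAZF1 with 8.49 and NFE2 with 7.85, and both also stood out in other lines, JAZF1 in HPB-ALL at 8.50 and CCRF-CEM at 7.53, and NFE2 in 4 further lines with 7.32 to 9.48. SKAP1, the neighbour of HOXB1 and an adaptor of T-cell receptor signalling, was 4.31 in LOUCY and stood out in CCRF-CEM, PEER, JURKAT, CML-T1 and MOLT-16, with 7.98 to 9.86.

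HOXC genes stood out in LOUCY and JURKAT, as HOXB genes did, and in CML-T1, but not in PEER or MOLT-14. HOXC4, known from activated B-cells, was 7.20 in JURKAT, 7.14 in CML-T1, 6.88 in MOLT-4 and 6.08 in LOUCY, followed by MOLT-14 at 5.58, SUP-T1 at 5.30, CCRF-CEM at 5.04, ALL-SIL at 4.73, HPB-ALL at 4.38, PEER at 4.28 and MOLT-16 at 4.01. JURKAT alone passed the threshold for standing out, by a margin that does not set it apart from CML-T1.

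HOXC6 was 9.16 in LOUCY, 7.22 in CML-T1, 6.13 in JURKAT and 6.02 in MOLT-4. It lay at 4.97 in SUP-T1, 4.68 in MOLT-16 and 4.52 in MOLT-14, and between 3.85 and 4.19 in PEER, CCRF-CEM, HPB-ALL and ALL-SIL. LOUCY and CML-T1 stood out. The 4 highest lines for HOXC6 were thus the 4 highest for HOXC4, in another order.

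HOXC10 was 7.12 in LOUCY, 6.99 in JURKAT, 5.69 in CML-T1, 5.22 in MOLT-4, 4.91 in SUP-T1 and 4.83 in MOLT-14, and 3.20 to 3.77 in the other 5 lines. Again the same 4 lines led. HOXC9, which lies between HOXC8 and HOXC10, was 6.78 in LOUCY and 3.26 to 4.03 in the other 10 lines, and HOXC8 was 4.92 in LOUCY within a range of 3.73 to 5.80. The high HOXC genes of LOUCY were thus not all neighbours. HOXC5, HOXC11, HOXC12 and HOXC13 moved within 1.29 log2 units or less over the 11 lines.

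In the HOXD cluster HOXD13 was the single gene that stood out. HOXD13 patterns the digits and is a known fusion partner of NUP98 in leukemia. It was 7.06 in JURKAT, 6.53 in PEER, 6.25 in SUP-T1, 6.12 in MOLT-14, 5.91 in CML-T1 and 5.33 in MOLT-4, and 4.64 in LOUCY, 4.33 in HPB-ALL, 4.10 in CCRF-CEM, 3.89 in ALL-SIL and 3.82 in MOLT-16. Its 2 further probe sets were also highest in JURKAT, with 5.54 and 5.78. LOUCY, which led in HOXB and HOXC6, was thus among the low lines for HOXD13. The neighbours of HOXD13 were low, with HOXD12 at 2.79 to 3.44 and HOXD11 at 3.11 to 4.76 over the lines.

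HOXA2, HOXC12, HOXC13, HOXD4, HOXD10 and HOXD12 were below the array median in all 11 lines. These are 6 of 28 members, and the share among all genes was 21.9%.

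The likeness of HOX genes across the lines, given as Pearson correlations without a test, was computed with and without LOUCY. The 28 pairs among HOXB2 to HOXB9 had a median correlation of 0.60 over the 11 lines and of 0.26 over the 10 lines without LOUCY. Outside LOUCY, HOXB6 (except in PEER) and HOXB8 lay near background, so their correlations without LOUCY carry no information. Some pairs of genes measured above background in most lines were similar in both sets. HOXB3 and HOXB4 gave 0.90 with LOUCY and 0.91 without, HOXB4 and HOXB7 gave 0.89 and 0.83, and HOXC4 and HOXC10 gave 0.84 and 0.92. HOXB7 and HOXD13, which lie on different chromosomes, correlated at 0.65 over the 11 lines and at 0.97 without LOUCY. The latter is named as the highest of the 269 pairs of genes from different clusters, whose median without LOUCY was 0.11. The points are single arrays, 3 of them without poly-A controls.

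The HOX genes were also compared by the presence of poly-A controls. In MOLT-16, CML-T1 and HPB-ALL the mean was lower than in the other 8 lines for 23 of the 28 HOX genes (82.1%), against 52.3% of all genes, and 3 genes (10.7%) were lower without overlap, against 9.29% of all genes, which is close to the same share. Among these, HOXB1 had 3.40 to 4.01 against 4.59 to 5.92, and HOXB5 had 3.35 to 4.17 against 5.11 to 7.63. HOXC12 had 3.31 to 3.40 against 3.55 to 4.09. The second probe sets of HOXB1 and HOXB5 did not repeat this split. That of HOXB1 was 3.46 in MOLT-16 and 3.08 in PEER, and that of HOXB5 was highest after LOUCY in HPB-ALL and MOLT-16. No HOX gene was higher without overlap, against 3.09% of all genes. CML-T1, one of the lines without poly-A controls, nevertheless had HOXC6 at 7.22 and HOXC4 at 7.14. LOUCY, JURKAT, PEER and MOLT-14, which held all pairs that stood out except HOXC6 in CML-T1, are among the other 8 lines. Some genes that stood out in no line also had a lower mean in the 3 lines without poly-A controls, such as HOXC8 with 4.27 against 5.28. HOXA2, HOXD1, HOXD8 and HOXD11 had the higher mean there, and HOXD10 an equal one. What part the high HOX levels of LOUCY, JURKAT, PEER and MOLT-14 have in the count of lower means was not tested.

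No HOX gene passed the test for a difference with NKL status. In the limma comparison 0 of 28 HOX genes passed an adjusted p of 0.05, against 0.0152% of all genes and 0.00916% of all probe sets, and 0 passed an unadjusted p of 0.05, against 5.26% of all genes. In no HOX gene were the groups free of overlap, against 0.905% of all genes. In the NKL-positive lines 15 HOX genes had the higher mean, 12 the lower and 1 an equal mean, with a median difference of 0.06, and over all genes 49.7% had the higher mean. The smallest unadjusted p was 0.0825, for HOXD1 with 3.998 ± 0.19 (SD, n = 5) in NKL-positive and 4.43 ± 0.41 (SD, n = 5) in NKL-negative lines, where the adjusted p was 0.981. The lack of a call does not show that the groups were alike, since standard errors reached 1.45 log2 units.

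The largest differences in the NKL-positive direction shrank when LOUCY or PEER was left out. HOXB6 was 4.89 ± 2.58 (SD, n = 5) against 3.31 ± 0.30, a log2 difference of 1.58 (SE 1.02), which was 0.48 without LOUCY. HOXB2 was 6.37 ± 3.08 against 4.81 ± 2.05, a log2 difference of 1.57 (SE 1.45), which was 0.62 without PEER and 2.48 without MOLT-14. HOXB8 was 4.14 ± 2.51 against 2.99 ± 0.25, a log2 difference of 1.15 (SE 0.99), which was 0.03 without LOUCY. The differences of HOXB5 (0.59), HOXC9 (0.54) and HOXB9 (0.46) were smaller, and without LOUCY became 0.11, -0.12 and -0.28.

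Other genes had the lower mean in NKL-positive lines. HOXC4 was 4.90 ± 0.72 against 5.78 ± 1.27 (SD, n = 5 each), a log2 difference of -0.88 (SE 0.59), HOXB3 had -0.81 (SE 1.38), HOXD13 -0.79 (SE 0.58), HOXC10 -0.56 (SE 0.73) and HOXC6 -0.48 (SE 1.02). HOXC6 and HOXC10 reached an unadjusted p of 0.0155 and 0.0129 when LOUCY was left out, with differences of -1.52 and -1.28, but their adjusted p was 0.9999 in both cases. The differences of HOXB4 (0.13) and HOXB7 (-0.09) were close to 0. Whichever line was left out, no HOX gene passed an adjusted p of 0.05.

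**Figure D3:**
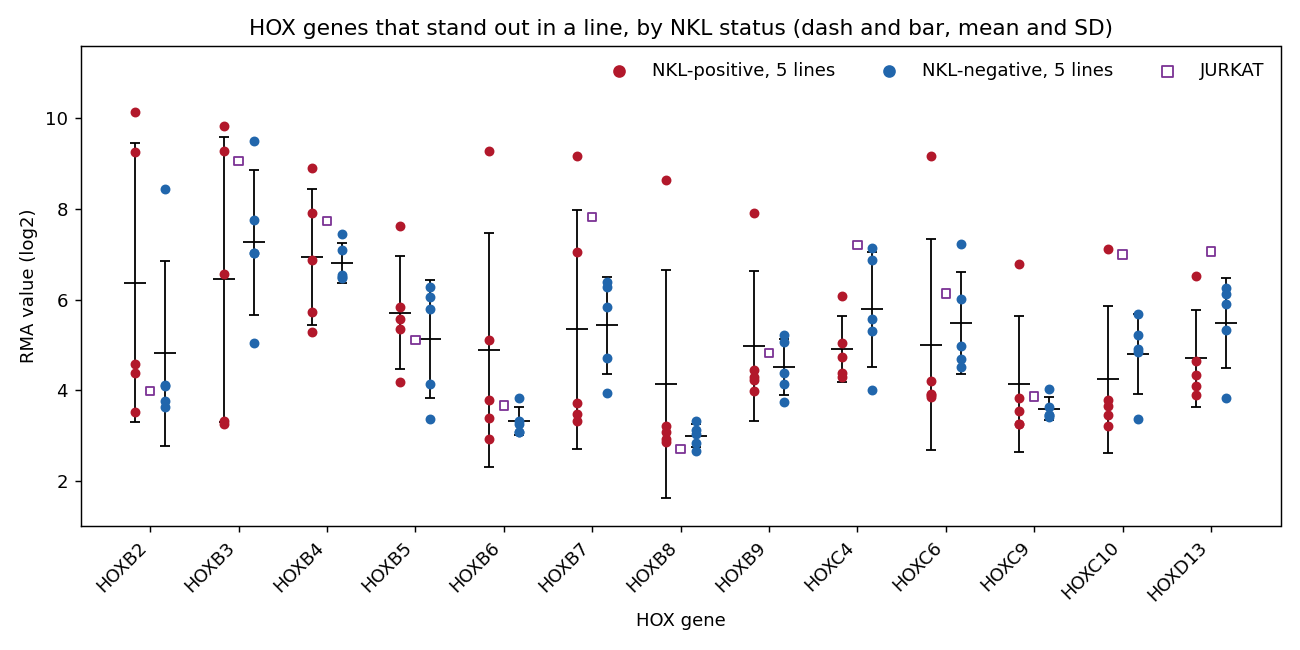
RMA values (log2) of the 13 HOX genes that stand out in a line, for 5 NKL-positive (red) and 5 NKL-negative (blue) lines, with JURKAT as an open square and with mean and SD as dash and bar. The groups overlap in every gene, and the wide bars of HOXB6 and HOXB8 come from LOUCY at 9.27 and 8.63.

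HOX proteins need TALE cofactors, of which 8 of 9 listed genes were measured. None stood out in LOUCY, where 2.46% of all genes did. In other lines 2 of the 8 (25%) stood out, and 11.5% of all genes stood out in at least 1 line. MEIS1, a partner of HOX proteins in leukemia, was 5.87 in CML-T1, 5.34 in JURKAT and 4.87 in SUP-T1, and 2.75 to 4.17 in the other 8 lines, with LOUCY at 3.66. MEIS2 was 8.58 in HPB-ALL, 8.29 in ALL-SIL, 8.05 in SUP-T1, 7.08 in MOLT-14 and 6.29 in JURKAT, against 5.03 in CML-T1, 4.71 in MOLT-4, 4.28 in PEER, 3.78 in CCRF-CEM, 3.58 in MOLT-16 and 3.32 in LOUCY. ALL-SIL and HPB-ALL, the lines with the highest MEIS2, had HOXB3 near background. SUP-T1 and MOLT-14, where MEIS2 also stood out, had HOXB3 at 7.75 and 9.49. PBX3 was 9.11 in LOUCY, its highest value, and 6.78 to 9.02 elsewhere.

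PBX2 ranged from 6.04 to 7.90, PBX4 from 5.30 to 7.27, PKNOX1 from 6.57 to 7.89 and PKNOX2 from 3.98 to 6.44 over the 11 lines. MEIS3 was 3.57 to 3.82 in the 3 lines without poly-A controls and 5.86 to 6.76 in the other 8. No TALE gene passed an adjusted or an unadjusted p of 0.05 with NKL status, against 0.0152% and 5.26% of all genes.

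**Figure D4:**
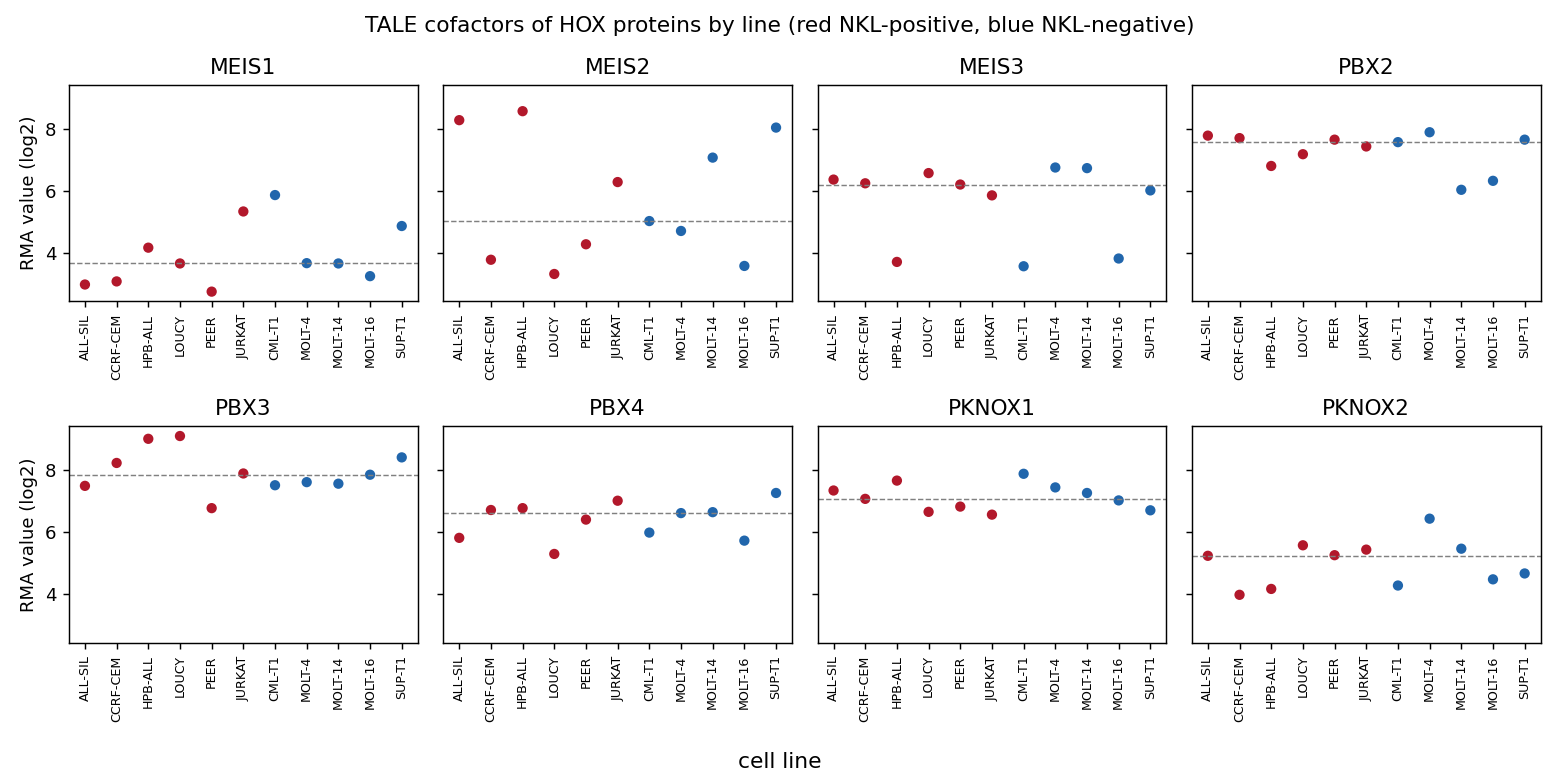
RMA values (log2, shared axis) of 8 TALE cofactors in 11 lines, NKL-positive in red and NKL-negative in blue, with the median of the 11 lines dashed. MEIS2 is high in ALL-SIL, HPB-ALL and SUP-T1 and 3.32 in LOUCY, and PBX3 is highest in LOUCY at 9.11.

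Regulators of HOX genes were looked at as further lists. Among 16 genes of the trithorax and DOT1L side, which keeps HOX genes active, MLLT3 stood out in CML-T1 at 9.67, and AFF4 and NSD1 were lower in NKL-positive lines at an unadjusted p under 0.05, with log2 differences of -0.76 and -0.52. Among 14 polycomb genes, which keep HOX genes silent, none stood out as high. EED was higher in NKL-positive lines by 0.52 on the log2 scale, at an unadjusted p of 0.0368. Calls at an unadjusted p under 0.05 were thus 2 of 16 and 1 of 14 genes, against 5.26% of all genes. These are too few to set the lists apart. EZH2, the methyltransferase of the polycomb complex PRC2, was low in a single line. It was 2.53 in LOUCY, which is near background, and 9.73 to 11.19 in the other 10 lines, and it was read by 1 probe set. Of all genes 1.7% lay at least 2 log2 units below the other lines in LOUCY, a count made after the values were seen, and EZH2 was the single polycomb gene among them. PCGF2, another gene of the polycomb list, was 3.20 in HPB-ALL and 5.83 to 8.74 in the other 10 lines. Whether EZH2 or PCGF2 bears on the HOX genes of these lines was not tested. Of 15 upstream regulators NUP214, a nuclear pore gene that is fused to SET in LOUCY, was 9.59 in LOUCY and 7.19 to 8.13 elsewhere, and MECOM was 7.24 in SUP-T1 and 2.92 to 5.52 elsewhere. The adjusted p was 0.981 or above throughout these lists.

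Among 16 genes described as HOX targets in blood cells, 6 (37.5%) stood out in a line, against 11.5% of all genes. In LOUCY 5 of the 16 (31.2%) stood out, against 2.46% of all genes. The list was chosen with earlier results of these data known, so these shares are descriptions only. MEF2C, a progenitor transcription factor, was 10.57 in LOUCY, 7.69 in MOLT-16 and 5.74 in CCRF-CEM, and 2.95 to 4.0 in the other 8 lines. BCL2, an inhibitor of apoptosis, was 10.85 in CML-T1 and 10.25 in LOUCY, and 5.92 to 8.86 elsewhere. ID2, ERG and LMO2 were high in LOUCY and in 2 to 4 other lines each, some of them lines in which no HOX gene stood out. CAMK2D was lower in NKL-positive lines by 2.48 on the log2 scale, with an unadjusted p of 0.0202 and an adjusted p of 0.981. It was the only 1 of the 16 at an unadjusted p under 0.05, against 5.26% of all genes. Whether these levels depend on HOX proteins was not tested.

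The 3 lines with high HOXB2 also shared a T-cell receptor transcript, which was looked at after the HOXB2 values were seen. TRDV3, a variable segment of the delta chain, was 13.15 in LOUCY, 12.19 in PEER, 12.36 in ALL-SIL and 10.02 in MOLT-14, and 2.66 to 3.31 in the other 7 lines. ALL-SIL had TRDV3 without HOXB2, which was 4.58 there. Other receptor segments are not given here, and a link of TRDV3 to HOXB2 was not tested.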

How the data were processed

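RNA of 11 T-ALL cell lines was measured on HG U133 Plus 2.0 arrays, 1 per line. The authors processed the arrays by RMA, with affy and limma also named in the submitters' processing notes, and deposited log2 values with 2 decimals, which were used as given. The probe-level data were not used here, no genome build is involved, and precision is limited by the number of arrays. RMA brings low values together, so that differences near background are understated.

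The 62 control probe sets were set aside, leaving 54613. Of these 41091 carry 1 gene symbol, 1801 several and 11721 none in the platform annotation, and only those with 1 symbol were named. All 28 HOX symbols matched the RefSeq table of GRCh38.p14, which gave the gene order. The members and gene lists were chosen with earlier results of these data known.

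NKL-positive (5) and NKL-negative (5) lines were compared in R 4.3.3 by moderated linear models (limma 3.58.1) without covariate or filter. Benjamini-Hochberg adjustment ran over all 54613 probe sets, and 0.05 was the threshold. The procedure was run on simulated normal values with a known shift in all 5 lines of a group. A difference carried by a single line was not simulated. P-values measure the spread between lines. Named were HOX genes that stood out by any probe set, those with the largest differences, all TALE cofactors and, in the other lists, members that stood out or had an unadjusted p under 0.05, up to 6 a list. The part of this rule on 1 HOXA gene could not be applied, and that gene is not reported here. Alternatives changed the lines, scaling, filter, background, variance model, probe set and gap. Correlations without LOUCY and the split by poly-A controls were chosen after seeing the data.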

Additional observations from a re-analysis of the deposited data

Results flagged for a closer look

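Of 56 sets of values (28 HOX genes in 6 NKL-positive or 5 NKL-negative lines), 10 held a line far from the others by Dixon's test. In LOUCY these were HOXB6 at 9.27, HOXB8 at 8.63, HOXB9 at 7.92, HOXC9 at 6.78 and HOXA2 at 3.66, the last being near background. HOXB2 in MOLT-14 was 8.45 among NKL-negative lines. HPB-ALL was low for HOXB1 at 3.48 and for HOXB13 at 2.92, and lacks poly-A controls, whose part in these values was not tested. HOXD4 in MOLT-4 at 4.36 and HOXD11 in CML-T1 at 4.76 were flagged for being higher than the other NKL-negative lines. The array medians there were 4.71 and 4.72, and the other HOXD4 probe set was 3.39 in MOLT-4. The share of such sets over all genes is not given here, so the count of 10 is a description only.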

How the results depend on the processing

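No HOX gene passed an adjusted p of 0.05 under any alternative, and the smallest adjusted p was 0.631. The number at an unadjusted p under 0.05 went from 0 to 1 without CML-T1 and MOLT-16, with a poly-A term in the fit, and with the lines with poly-A controls alone, in each case HOXB1. With each line left out it ran from 0 to 2, with HOXC6 and HOXC10 without LOUCY, HOXC4 and HOXD13 without MOLT-16, HOXD13 without PEER, HOXD4 without MOLT-4 and HOXD1 without SUP-T1. Of 270 alternative differences for the 13 named genes, 254 kept their direction and 16 in 6 genes turned. HOXB7 (-0.09) became 0.33 with all 11 lines and 0.16 with the poly-A lines alone, and ran from -1.04 to 0.42 with each line left out, being positive without ALL-SIL (0.42), CCRF-CEM (0.32), HPB-ALL (0.38), CML-T1 (0.12), MOLT-14 (0.0125) or SUP-T1 (0.15). HOXB4 (0.13) became -0.07 without CML-T1 and MOLT-16 and -0.10 with the poly-A term, and ran from -0.36 without LOUCY to 0.54, being -0.12 without PEER. HOXB5 became -0.33 without CML-T1 and MOLT-16, and HOXC6 0.11 with the poly-A lines alone. HOXB9 ran from -0.28 without LOUCY to 0.71, and HOXC9 from -0.12 without LOUCY to 0.76. The cause was not tested.

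The 21 pairs that stood out became 39 at a gap of 1 log2 unit, with 11 in LOUCY, 7 in JURKAT, 6 each in PEER and CML-T1, 5 in MOLT-14, and 2 each in MOLT-4 and SUP-T1, and 9 at a gap of 3, with 7 in LOUCY and HOXB2 in PEER and in MOLT-14. With each line left out they ran from 11 without LOUCY to 23. Without LOUCY, HOXB7 in PEER and HOXC4 in CML-T1 also stood out. Scaling, the level asked for and the choice of probe set gave 19 to 22. No paired analysis was possible because a cell line belongs to a single group.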
